A study of Mus musculus with 2 samples.

Results

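Rab proteins are the largest family of small GTPases and give each membrane compartment of the cell its identity. A Rab is attached to a membrane by lipid groups at its tail, is switched on by an exchange factor (GEF) that loads GTP, recruits tethers, motors and other effectors while it is on, and is switched off by a GTPase-activating protein (GAP) of the TBC family. In macrophages Rab proteins steer phagosome maturation, cytokine secretion and the transport of Toll-like receptors. The genes described here are those whose symbol starts with Rab followed by a digit on a probe set with 1 gene symbol. There were 70 such genes among 22180 named genes: 58 Rab GTPases, 8 regulators or other proteins named after a Rab, and 4 non-coding transcripts. The last 12 carry the name without being Rab GTPases. Another 3 symbols, Rab4b, Rab11fip1 and Rab11fip5, were read only by probe sets shared with other genes and are given apart.

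Messenger RNA was measured on 2 Affymetrix arrays. The first came from RAW264.7 cells, an established mouse macrophage line, labelled HuR-deficient, and the second from wildtype RAW264.7 cells. HuR, the product of Elavl1, is an RNA-binding protein known to stabilise many mRNAs with AU-rich stretches. Both cultures were transfected for 8 hours, using lipofectamine 2000, with poly(I:C) HMW at a stated 1 mg/ml. This double-stranded RNA of high molecular weight is made synthetically and mimics viral RNA. An unstimulated culture was not analysed here. The sample title of the HuR-deficient array reads HuR-KO, which names a knockout. The sources used here do not state how the gene was disrupted or whether the deficient line is 1 clone. With 1 array per group there was no spread between replicates and no test, so every difference below is a description of these 2 arrays. In such bulk RNA a smaller number of expressing cells and less RNA per cell cannot be told apart.

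Elavl1 had a log2 signal of 7.75 on the array labelled HuR-deficient and 7.68 on the wildtype array, so the targeted gene's signal was not lower. The sources used here do not state which part of the gene its probes read, so it cannot check the genotype label. The arrays correlated with a Pearson r of 0.970 across 41345 probe sets. Of 14 macrophage marker genes, 13 had a mean signal at or above 4.38, the median of all named values, which is used below as a floor. Among the 14, Adgre1, which encodes F4/80, differed by 1.57 (6.51 on the array labelled HuR-deficient, against 4.94 on the wildtype array) and Mertk by 0.73, with both its signals below the floor, and the other 12 were within 1.5-fold. The part of such marker differences in the Rab values was not tested. A mean at or above the floor was also found for 2 of 6 T and NK cell markers, 1 of 3 B cell markers and 4 of 9 fibroblast, epithelial and endothelial markers. The floor is not a detection call, and a probe set's brightness depends on its probes, so signals are compared between the arrays and not between genes.

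The size of the Rab genes' differences was near that of genes in general, with a median of 0.21 on the log2 scale without regard to sign, beside 0.22 over all named genes. None of the 70 differed by 2-fold, a size reached by 1.88% of all named genes. At 1.5-fold (0.58 on the log2 scale), 4 genes passed, which is 5.71%, beside 11.0% of all named genes. Of these, 2 were higher on the array labelled HuR-deficient, a direction taken by 5.61% of all named genes, and 2 were lower, as were 5.36% of all named genes. The median log2 difference, HuR-deficient minus wildtype, was -0.08 over the 70 and 0.00 over all named genes, and the SD across genes was 0.292 for the 70 and 0.392 for all named genes. There were 30 members above 0 and 40 below. Of the 70, 49 had a mean signal at the floor or above, and 21 lay below it. Of the 49, 3 differed by 1.5-fold, beside 9.25% of all named genes at the floor or above.

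**Figure D1:**
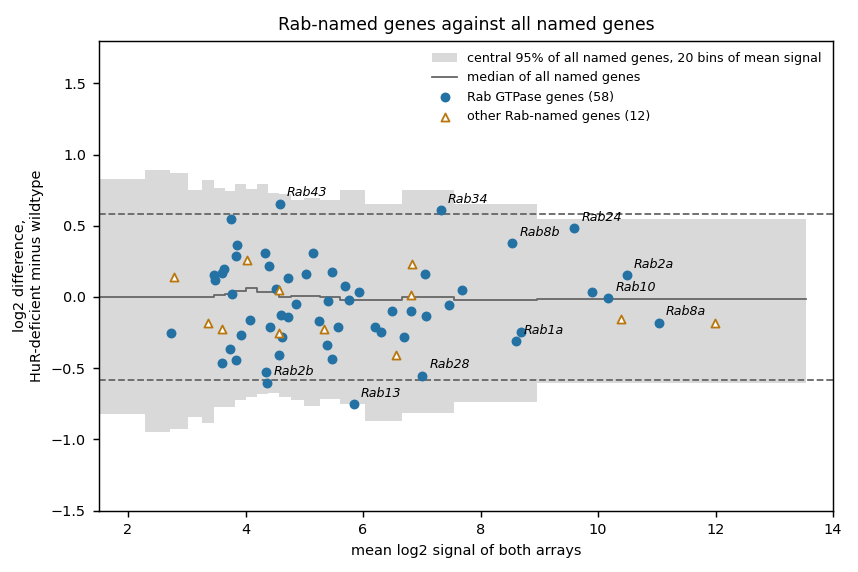
Log2 difference (HuR-deficient minus wildtype, y axis) against the mean log2 signal of both arrays (x axis) for the 58 Rab GTPase genes (dots) and the 12 other Rab-named genes (triangles). The grey area holds the central 95% of all named genes in each of 20 bins of mean signal, and the dashed lines mark 1.5-fold. All 70 genes lie inside the grey area, with Rab13, Rab34, Rab43 and Rab2b beyond the dashed lines.

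Of the 4 genes past 1.5-fold, Rab43 and Rab2b were grouped here with the Golgi Rabs and stood on opposite sides of 0. Rab13 and Rab34 were placed in other role classes. Rab13, which carries surface and junction proteins to the plasma membrane, had a log2 signal of 5.46 on the array labelled HuR-deficient, against 6.21 on the wildtype array, a difference of -0.75 (1.69-fold lower). Both of its values were above the floor. Rab2b, a Golgi Rab, had 4.06 on the array labelled HuR-deficient, against 4.66 on the wildtype array, a difference of -0.60. Its value on the array labelled HuR-deficient lay under the floor, as did its mean. Rab34, which acts in macropinosome formation, lysosome positioning and cilium formation, had 7.63 on the array labelled HuR-deficient, against 7.02 on the wildtype array, a difference of 0.61 (1.53-fold higher). Rab43, a Golgi Rab, had 4.91 on the array labelled HuR-deficient, against 4.26 on the wildtype array, a difference of 0.66 (1.57-fold higher), with the wildtype value under the floor. Rab34 and Rab13 were thus the members past 1.5-fold whose signal reached the floor on both arrays. Just short of 1.5-fold lay Rab28, at -0.55, and Rab40b, at 0.54, the latter with both signals below the floor.

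The promoters of these 4 genes are shown because they were the members with the largest differences. Each is 300 bases, from 250 before to 50 after the most upstream start of the gene, from RefSeq on GRCm38.p6, written 5′ to 3′ on the gene's strand. The Rab34 promoter is at chr11:78188177-78188476 on the plus strand, that of Rab43 at chr6:87812115-87812414 on the minus strand, that of Rab13 at chr3:90213465-90213764 on the plus strand and that of Rab2b at chr14:52279346-52279645 on the minus strand. Capitals mark matches, on either strand, to 6 motifs: the GC box GGGCGG, the CCAAT box CCAAT, the TATA box TATAAA, the E-box CACGTG, an interferon response core (GAAA, any 2 bases, GAAA) and the NF-kappaB consensus. None of them contains another.
Rab34: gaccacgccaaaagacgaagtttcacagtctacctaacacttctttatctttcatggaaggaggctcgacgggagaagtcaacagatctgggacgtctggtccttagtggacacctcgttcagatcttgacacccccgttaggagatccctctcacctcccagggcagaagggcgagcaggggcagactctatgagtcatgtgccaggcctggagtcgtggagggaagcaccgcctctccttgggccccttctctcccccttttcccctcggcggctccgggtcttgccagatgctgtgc
Rab43: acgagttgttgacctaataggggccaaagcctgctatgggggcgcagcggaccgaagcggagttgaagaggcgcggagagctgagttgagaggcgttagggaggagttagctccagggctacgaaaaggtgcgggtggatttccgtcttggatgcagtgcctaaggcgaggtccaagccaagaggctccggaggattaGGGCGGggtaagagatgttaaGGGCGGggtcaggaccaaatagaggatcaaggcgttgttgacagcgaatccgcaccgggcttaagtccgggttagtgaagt
Rab13: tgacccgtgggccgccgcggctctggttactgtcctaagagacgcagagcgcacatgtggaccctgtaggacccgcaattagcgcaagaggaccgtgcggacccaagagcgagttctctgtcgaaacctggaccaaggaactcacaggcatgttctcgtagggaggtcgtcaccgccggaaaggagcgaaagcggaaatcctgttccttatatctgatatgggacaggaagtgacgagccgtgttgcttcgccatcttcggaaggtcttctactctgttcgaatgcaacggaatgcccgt
Rab2b: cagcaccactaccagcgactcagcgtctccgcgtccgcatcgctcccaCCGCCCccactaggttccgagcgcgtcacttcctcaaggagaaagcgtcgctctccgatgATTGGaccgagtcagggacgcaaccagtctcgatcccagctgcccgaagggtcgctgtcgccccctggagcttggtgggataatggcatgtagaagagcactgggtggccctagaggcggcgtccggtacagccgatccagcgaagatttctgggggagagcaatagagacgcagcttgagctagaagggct

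The Rab43 promoter held 2 GC boxes and that of Rab2b held 1 GC box and 1 CCAAT box. The windows of Rab34 and Rab13 held none of these letters. None of the 4 windows held the interferon core or the NF-kappaB consensus. Of the 58 Rab GTPase genes, 47 had a promoter in the table. Among them 33 (70.2%) held a GC box, beside 35.9% of 27025 genes with a promoter there. A CCAAT box was in 22 (46.8%), beside 38.0% of all genes, and a TATA box in 4 (8.51%), beside 14.2%. The E-box, which is the core of the element bound by the lysosomal regulator TFEB, was in those of Rab5a, Rab20, Rab21, Rab23 and Rab24 (10.6%, beside 7.24% of all genes). The interferon core was in that of Rab19 (2.13%, beside 3.49%) and the NF-kappaB consensus in those of Rab11a and Rab28 (4.26%, beside 8.19%). The Rab promoters had a median GC content of 61.3%, ranging from 35.7% to 78.7%, beside a median of 52.7% over all genes, and their median count of CpG pairs was 20, beside 7. The GC box share and the base composition moved together and were not separated, and the table of all genes also holds non-coding and predicted genes.

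Rab GTPases of the endoplasmic reticulum and Golgi apparatus had a median difference of -0.13 over 15 measured genes, with 6 above 0 and 9 below. A mean signal below the floor was found for 5 of them: Rab6b, Rab30, Rab36 and Rab39 above 0, and Rab2b below 0. Rab1a, which drives transport from the endoplasmic reticulum to the Golgi, had 8.46 on the array labelled HuR-deficient, against 8.77 on the wildtype array (difference -0.31). Its close relative Rab1b had 5.39 on the array labelled HuR-deficient, against 5.42 on the wildtype array. Rab6a, which acts in transport from and within the Golgi, had 5.22 on the array labelled HuR-deficient, against 5.56 on the wildtype array (difference -0.34). Rab2a, which works at the interface of these compartments, had 10.56 on the array labelled HuR-deficient, against 10.41 on the wildtype array (difference 0.15). Within this class the differences ran from Rab2b to Rab43, and the lower values of Rab1a and Rab6a stood beside a slightly higher Rab2a. Rab18, known from lipid droplets, differed by -0.21, Rab19 by -0.28, Rab33a by -0.13 and Rab33b by -0.17.

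The early endosome class was the narrowest of the 6 role classes by SD, 0.193 over 8 genes, of which 7 had a mean at the floor or above. The SDs rest on few genes and were not tested against each other. None of the 8 reached 1.5-fold, beside 11.0% of all named genes, a share at which a list of 8 can readily hold none. The 3 Rab5 genes encode the GTPase that defines early endosomes. Rab5a had 5.47 on the array labelled HuR-deficient, against 5.68 on the wildtype array. Rab5b had 4.79 on the array labelled HuR-deficient, against 4.65 on the wildtype array, and Rab5c had 7.01 on the array labelled HuR-deficient, against 7.14 on the wildtype array. Their differences were -0.21, 0.13 and -0.14, without a common sign. Rab21, which acts in integrin uptake, had 8.57 on the array labelled HuR-deficient, against 8.81 on the wildtype array. Rab20, linked to phagosome maturation, differed by 0.08, and Rab31 and Rab22a by 0.16 each. Rab17 differed by -0.27, with both signals below the floor.

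Among 12 genes of recycling and transport to the cell surface, the median difference was -0.02. Rab13 was the member past 1.5-fold (8.33%, beside 11.0% of all named genes). Rab11a and Rab11b, the GTPases of the recycling endosome, had 7.71 and 9.91 on the array labelled HuR-deficient, against 7.66 and 9.88 on the wildtype array. Rab10, which acts in secretion and in the surface delivery of receptors, had 10.16 on the array labelled HuR-deficient, against 10.17 on the wildtype array. These 3 genes differed by no more than 0.05. Rab8b, an exocytic Rab, had 8.73 on the array labelled HuR-deficient, against 8.35 on the wildtype array (difference 0.38). Its close relative Rab8a had 10.94 on the array labelled HuR-deficient, against 11.12 on the wildtype array (difference -0.18) on its brighter probe set. A second Rab8a probe set read 7.14 on the array labelled HuR-deficient, against 6.45 on the wildtype array, a difference of 0.69, so the direction of Rab8a depended on the probe set. Rab14 differed by -0.10, Rab4a by -0.05 and Rab35, an endocytic recycling Rab, by -0.02.

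**Figure D2:**
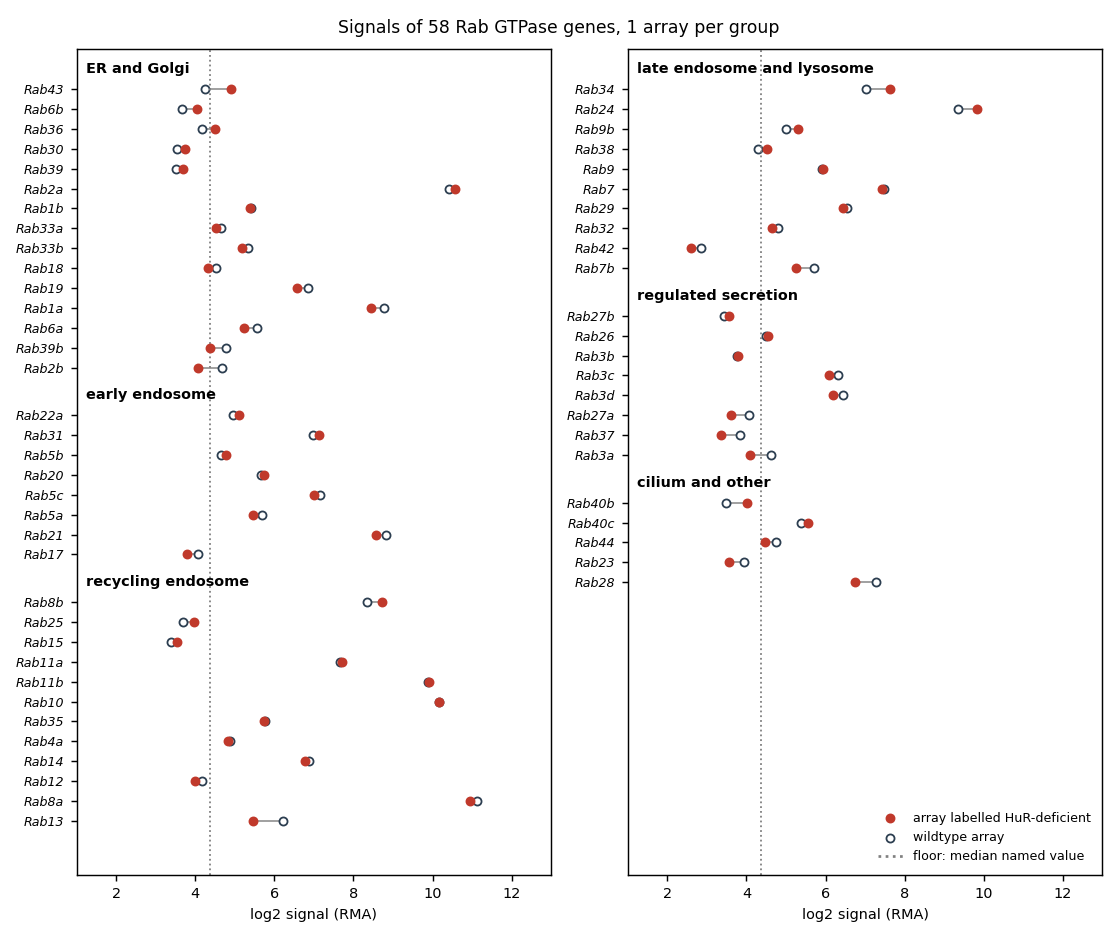
Log2 signal (x axis) of each of the 58 Rab GTPase genes on the array labelled HuR-deficient (filled) and the wildtype array (open), grouped by role and ordered by difference within a role. The dotted line marks the floor of 4.38. The gap between the points is small for most genes and widest for Rab13.

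Genes of late endosomes and lysosomes had a median difference of -0.01 over 10 members, 5 on each side of 0. Rab7, the GTPase of late endosome and lysosome fusion, had 7.44 on the array labelled HuR-deficient, against 7.49 on the wildtype array (difference -0.05). Rab7b, linked to transport from endosomes to the Golgi, had 5.26 on the array labelled HuR-deficient, against 5.70 on the wildtype array (difference -0.44). Rab24, linked to autophagy, had 9.84 on the array labelled HuR-deficient, against 9.35 on the wildtype array (difference 0.49), the third highest difference among the members whose mean reached the floor, after Rab43 and Rab34. The core fusion GTPase thus lay near 0 between a lower Rab7b and a higher Rab24. Rab9, which acts in transport from late endosomes to the Golgi, differed by 0.03 and Rab9b by 0.31. Rab29, Rab32 and Rab38, relatives that act at lysosome-related organelles, differed by -0.10, -0.14 and 0.22.

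The Rab genes of regulated secretion had a median difference of -0.23 over 8 members, 3 above 0 and 5 below, and 5 of the 8 had a mean signal below the floor. Rab3d, a granule Rab, had 6.18 on the array labelled HuR-deficient, against 6.43 on the wildtype array. Rab3c had 6.09 on the array labelled HuR-deficient, against 6.30 on the wildtype array. Rab3a, the Rab of synaptic vesicles, had 4.09 on the array labelled HuR-deficient, against 4.62 on the wildtype array (difference -0.53). Rab27a, which docks secretory lysosomes, had 3.62 on the array labelled HuR-deficient, against 4.06 on the wildtype array, both under the floor, and Rab27b had 3.55 on the array labelled HuR-deficient, against 3.43 on the wildtype array. Rab37 differed by -0.46, Rab26 by 0.06 and Rab3b by 0.02. Rab3a, Rab37 and Rab27a, the lowest differences of the class, all had a mean signal under the floor, where signals were not shown to lie above background. Without detection calls, signals over the floor were not shown to do so either.

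The 5 remaining GTPases act at the cilium or are atypical. Rab28, linked to the cilium and to photoreceptors, had 6.73 on the array labelled HuR-deficient, against 7.28 on the wildtype array (difference -0.55, 1.47-fold lower). Rab40b, of a subfamily that serves in ubiquitin ligases, had 4.02 on the array labelled HuR-deficient, against 3.48 on the wildtype array, both under the floor. Its relative Rab40c had 5.56 on the array labelled HuR-deficient, against 5.39 on the wildtype array. Rab23, an inhibitor of Hedgehog signalling, differed by -0.37, with both signals under the floor, and Rab44, a large atypical Rab, by -0.28.

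**Figure D3:**
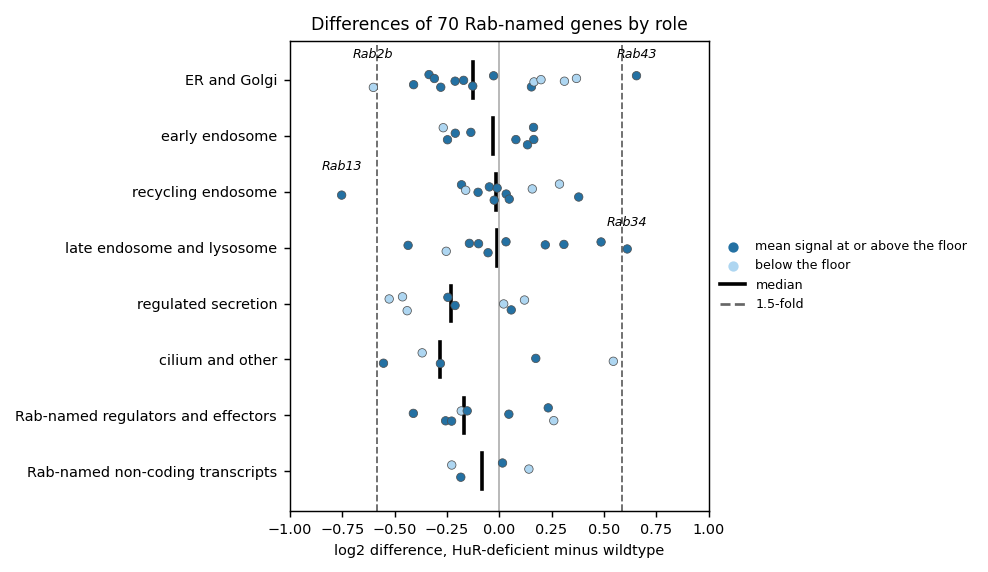
Log2 difference, HuR-deficient minus wildtype (x axis), of each of the 70 Rab-named genes by role, with the median of each class as a bar and 1.5-fold as dashed lines. Pale points have a mean signal below the floor. The 4 labelled genes lie past the dashed lines, and the class medians run from -0.28 to -0.01.

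Genes that share a Rab number were compared side by side. Of 13 Rab numbers with several measured genes, 7 held differences of both signs and 6 spanned at least 0.5 on the log2 scale. Over all 22180 named genes, 10903 differences were above 0, 10273 below and 1004 at 0, so unrelated genes also often differ in sign. Sets of unrelated genes were not compared. Of the Rab numbers, the widest was the pair Rab2a and Rab2b, 0.755 apart, followed by Rab6a and Rab6b, 0.704 apart. Rab2b and Rab6b had mean signals below the floor, as did Rab3a, Rab3b, Rab27a, Rab27b, Rab39 and Rab40b. Of the 7 numbers with both signs, only Rab5 and Rab8 had every gene at the floor or above. Of the 6 that spanned at least 0.5, only Rab8 did. With the probe sets of each gene averaged, a setting added after the values were seen, 6 numbers held both signs and 3 spanned at least 0.5. Under that setting Rab8a and Rab8b no longer differed in sign and were 0.126 apart. Rab11a and Rab11b were 0.014 apart and Rab33a and Rab33b 0.044 apart. Such genes are alike in sequence, and whether their probes read each other's transcripts was not tested.

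Several probe sets read 7 of the 70 genes, and in 4 of these, Rab6b, Rab8a, Rab20 and Rab39b, the probe sets stood on both sides of 0. Rab39b, an endosomal and Golgi Rab, had 4.37 on the array labelled HuR-deficient, against 4.78 on the wildtype array, on the brighter probe set, and 4.32 on the array labelled HuR-deficient, against 4.18 on the wildtype array, on the other. For Rab6b the brighter probe set differed by 0.37 and the other by -0.18. All 3 probe sets of Rab11b were above 0, at 0.03, 0.06 and 0.30, and both of Rab3c and both of Rab3d were below 0. Readings of the same gene on the same pair of arrays could therefore stand well apart, as for Rab8a. The 6 probe sets with several symbols were all within 1.5-fold. The brighter of those for Rab11fip1, a recycling effector, had 5.97 on the array labelled HuR-deficient, against 5.65 on the wildtype array. That for Rab11fip5 had 5.25 on the array labelled HuR-deficient, against 4.99 on the wildtype array, and the brighter one for Rab4b had 4.68 on the array labelled HuR-deficient, against 4.65 on the wildtype array.

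**Figure D4:**
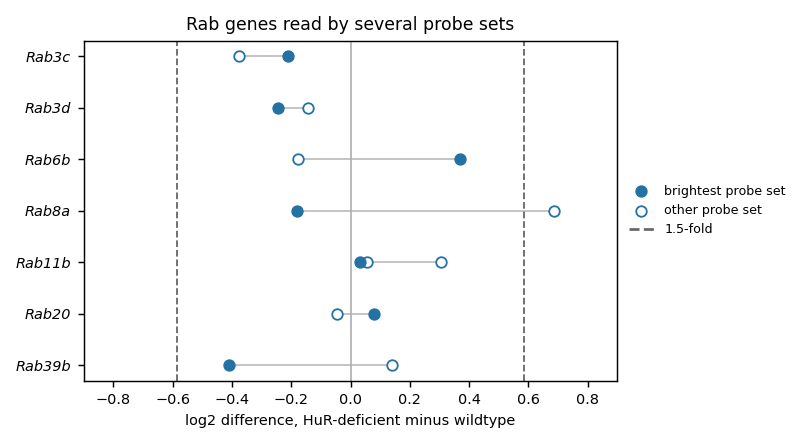
Log2 difference, HuR-deficient minus wildtype (x axis), of every probe set of the 7 Rab genes read by several. Filled points are the brightest probe set, which stands for the gene, open points are the others, and dashed lines mark 1.5-fold. The 2 probe sets of Rab8a lie at -0.18 and 0.69.

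Of the Rab-named genes that are not GTPases, 8 encode proteins, with a median difference of -0.17. None of the 8 was past 1.5-fold, beside 11.0% of all named genes. Rab3gap2, a subunit of the complex that switches off Rab3 and switches on Rab18, had 6.35 on the array labelled HuR-deficient, against 6.76 on the wildtype array, and its partner subunit Rab3gap1 had 5.22 on the array labelled HuR-deficient, against 5.44 on the wildtype array. Rab3ip, an exchange factor for Rab8, had 6.94 on the array labelled HuR-deficient, against 6.71 on the wildtype array. Rab5if, a protein of the endoplasmic reticulum membrane, had 10.31 on the array labelled HuR-deficient, against 10.46 on the wildtype array. Both subunits of the Rab3 complex were thus on the lower side and the Rab8 exchange factor on the higher one, all within 1.5-fold. The non-coding Rab26os had 11.90 on the array labelled HuR-deficient, against 12.09 on the wildtype array, while Rab26 itself had 4.54 on the array labelled HuR-deficient, against 4.48 on the wildtype array. Rab10os, which overlaps Rab10 in RefSeq, had 6.82 on the array labelled HuR-deficient, against 6.80 on the wildtype array.

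The proteins that switch Rab GTPases and bind them are given next, and their counts at 1.5-fold stand beside the same 11.0% of all named genes. Some were also counted among the Rab-named genes above: Rab3ip and Rab3il1 of the activators, and Rab3gap1 and Rab3gap2 of the GAP genes. The same holds for Rab11fip2, Rab11fip3 and Rab11fip4 of the recycling effectors. Of 35 measured activators, none reached 1.5-fold and the median was -0.07, with 15 above 0 and 20 below. Dennd1c, an exchange factor for Rab35, differed by -0.51 and Ccz1, a subunit of the Rab7 activator, by -0.40, while Dennd4b, an exchange factor for Rab10, differed by 0.45 and Smcr8, a partner of the C9orf72 protein, by 0.38. Of 40 measured GAP genes the median was -0.12, with 12 above 0, 25 below and 3 at 0, and 1 passed 1.5-fold. This was Tbc1d19, with 5.53 on the array labelled HuR-deficient, against 6.35 on the wildtype array (difference -0.81). The size of the differences of the GAP genes, a median of 0.23 without regard to sign, was close to that of all named genes, 0.22. Tbc1d23, which tethers endosome-derived vesicles at the Golgi, differed by -0.57, Tbc1d16 by 0.38 and Sgsm1 by 0.34. Activators and inactivators thus had medians on the same side of 0.

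Genes of Rab prenylation and membrane cycling had a median of -0.03 over 6 measured members. Gdi2, which extracts inactive Rab proteins from membranes, had 9.52 on the array labelled HuR-deficient, against 9.90 on the wildtype array (difference -0.38). Chml, an escort protein for prenylation, differed by -0.40, Rabggta, the alpha subunit of the enzyme that attaches the lipid, by 0.34 and Rabac1 by 0.12. All 4 genes of Rab phosphorylation were above 0, with a median of 0.23, beside 10903 of 22180 named genes above 0. The smallest difference was that of Lrrk2, 0.04, with a mean signal below the floor. Ppm1m had 7.70 on the array labelled HuR-deficient, against 7.13 on the wildtype array (difference 0.57), Lrrk1, a kinase of Rab7, differed by 0.30 and Ppm1h, a phosphatase of Rab8 and Rab10, by 0.17.

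Effectors were grouped by compartment from general knowledge. The place of each gene, such as Rilpl1 and Rilpl2 among late endosome effectors, was not checked. The 15 late endosome effectors and subunits of HOPS, the tether for fusion with lysosomes, had a median of 0.19, with 10 above 0, 4 below and 1 at 0. Rilpl1 had 5.81 on the array labelled HuR-deficient, against 5.13 on the wildtype array (difference 0.68). It was the 1 member past 1.5-fold (6.67%). Rubcn, which restrains autophagy, differed by 0.51. The HOPS subunit gene Vps41 differed by -0.54 and Plekhm2, which links lysosomes to kinesin, by -0.45. This list had the highest median of the 5 effector lists, yet its members ran in both directions. The 11 early endosome effectors had a median of -0.04 and none past 1.5-fold, from Rbsn at -0.25 to Rabep2 at 0.23. Among 15 recycling effectors the median was 0.10, and 2 passed 1.5-fold (13.3%, beside 11.0% of all named genes), Myo5a and Myo5b. Myo5a, a motor that carries Rab27a vesicles, differed by -0.71 and Exoc6 by 0.40. Myo5b, named after its values were seen, had 4.11 on the array labelled HuR-deficient, against 3.42 on the wildtype array, both below the floor. The 13 secretory granule effectors had a median of 0.11, and 9 of them lay below the floor. Rims1, which acts at synaptic release sites, was the member past 1.5-fold, with 4.30 on the array labelled HuR-deficient, against 3.62 on the wildtype array, both below the floor, and Rph3a differed by -0.44, also below it. Both were named after their values were seen. Sytl3, a Rab27 effector, differed by 0.41 and had a mean above the floor. The 12 Golgi effectors had a median of -0.14 and none past 1.5-fold, from Golga5 at -0.47 to Gcc2 at 0.32.

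Other small GTPase families gave values of the same order. The median was -0.05 over the 58 Rab GTPases, beside 0.00 over 18 Arf, Arl and Sar genes and 0.06 over 25 Ras and Rap genes. At 1.5-fold, 4 of the 58 passed, beside 0 of the 18 and 1 of the 25, each share under the 11.0% of all named genes. The 1 gene, Rrad, an inhibitor of calcium channels, differed by 1.02, past 2-fold, which no Rab gene was. These families were not tested against each other.

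**Figure D5:**
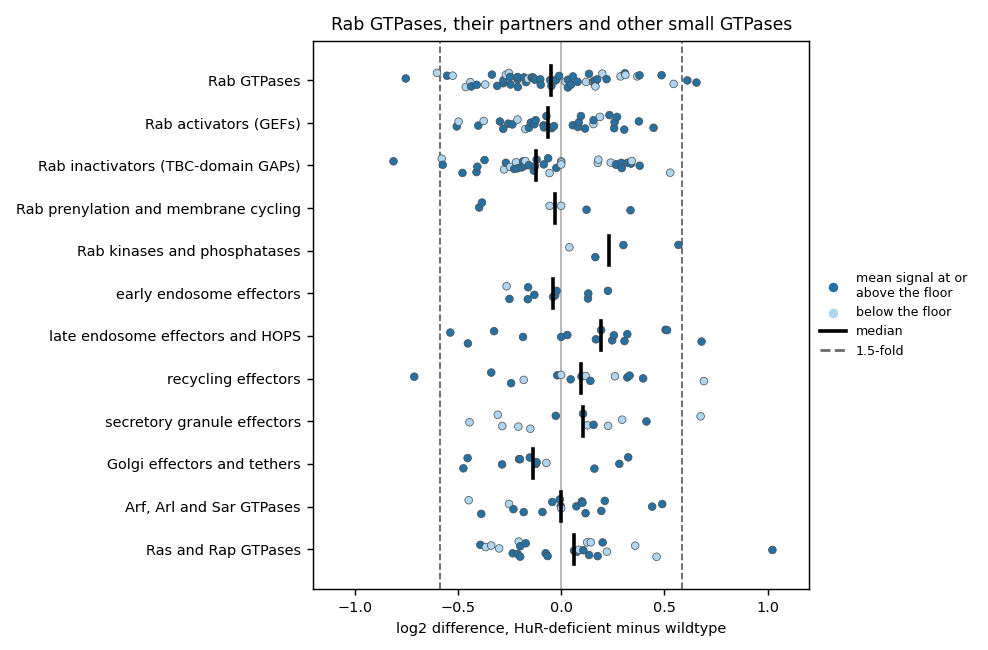
Log2 difference, HuR-deficient minus wildtype (x axis), of the 58 Rab GTPase genes, of genes that regulate or bind Rab proteins and of other small GTPase families, with the median of each list as a bar and 1.5-fold as dashed lines. The list medians run from -0.14 for Golgi effectors to 0.23 for the 4 Rab kinases and phosphatases.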

How the data were processed

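Values were the deposited log2 signals of 2 arrays, which the authors made with RMA (background correction, quantile normalisation, median polish), per the submitters' processing notes; version and genome build: not given in the sources used here. The log2 scale was inferred from values of 0.434 to 13.8. RMA equalises the arrays, so a change in total mRNA cannot be seen, and compresses weak signals. Of 41345 probe sets, 23521 had 1 gene symbol, 1814 several and 16010 none in the platform's table. The probe set with the highest mean of both arrays stood for a gene. The members followed from the symbol rule, and the role classes and partner lists were taken from general knowledge. The rule, classes and lists were all chosen with earlier results of these data known.

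Differences were HuR-deficient minus wildtype. No p-value was computed, since each group had 1 array, which also limits the precision; genes were counted at 1.5-fold and 2-fold. Named genes were members past 1.5-fold, the 10 highest mean signals, the 5 highest and 5 lowest differences at the floor, paralogs sharing a number, and the 2 highest and 2 lowest of each partner list; other members are given by their differences. Counting was tested on simulated data with planted differences larger than that of any Rab gene, so that test does not cover calls of their size. Promoter matches used Entrez Gene IDs. A further family of small GTPases is not reported here. Software was Python 3.11.15 with matplotlib 3.10.9, statsmodels 0.14.6, pandas 2.3.3 and numpy 2.4.6.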

Additional observations from a re-analysis of the deposited data

Results flagged for a closer look

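The second probe set of Rab8a, which does not stand for the gene in the counts, was 1.5-fold or more higher on the array labelled HuR-deficient (7.14, against 6.45 on the wildtype array, difference 0.69). It was the only one of the 8 unused probe sets with 1 symbol to pass 1.5-fold. The brighter Rab8a probe set differed by -0.18.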

How the results depend on the processing

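The counts at 1.5-fold, 2 Rab genes higher and 2 lower, were the same after centring on the median of all named genes, a further quantile normalisation, removal of a lowess trend on mean signal (fraction 0.3) or averaging of probe sets, and for the GTPases alone; in each case the genes were Rab34, Rab43, Rab13 and Rab2b. Centring subtracted 0, and the 4 genes are GTPases with 1 probe set each, so only the quantile and lowess settings could have changed these 4 calls. Limited to members whose mean reached the floor, the lower count was 1, since Rab2b lay below it. At 2-fold the counts were 0 higher and 0 lower. The median over the members ranged from -0.10 to -0.05 over the settings tried. Under the quantile and lowess settings, the differences of the 39 named members moved by at most 0.040. These 2 settings had little to move, since RMA had already quantile-normalised the arrays. The medians of all named genes in the 20 bins of mean signal ran only from -0.02 to 0.06. The small moves therefore lend the 4 calls little weight. Averaging could move only the 6 named members with several probe sets, and 3 moved by over 0.1: Rab8a to 0.25, Rab6b to 0.10 and Rab39b to -0.13. No paired analysis was possible because each group had 1 array. Without detection calls, a signal below the floor cannot be called absent.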
